A study of Mus musculus with 4 samples.

Results

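Innate lymphoid cells of group 1 resembling the liver-resident ILC1 were studied in 4 single-cell libraries from mouse liver. The cells were chosen by their raw counts of unique molecular identifiers (UMIs, each 1 captured transcript) of 19 genes, whose levels are given as a description and entered no test. An ILC1-like cell had at least 1 UMI of Ncr1 or Klrb1c, the genes of the receptors NKp46 and NK1.1, and at least 1 UMI of a residency gene, Itga1 (CD49a), Cxcr6, Cd200r1 or Il7r. It had at most 1 UMI over Cd3d, Cd3e and Cd3g, 0 of Trac, Eomes and Klra8, 0 of Cd79a, Cd79b, Flt3 and Siglech and at most 3 over C1qa, C1qb and C1qc. This left 543 of the 31290 cells kept, all with 500 or more detected genes and no more than 20% of UMIs from mitochondrial genes. Of these, 57 came from the NCD library, 254 and 100 from HFD replicates 1 and 2, and 132 from the JQF library.

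All mice were male C57BL/6J. The NCD group ate normal chow, the HFD group a high-fat diet, and the JQF group was fed a high-fat diet and then received Jiangtang Qingre Formula, a mixture of herbal preparations. There was 1 library of NCD, 2 of HFD and 1 of JQF, which the study's methods count as 1, 2 and 1 mice. The HFD pair gave the only replicate spread between animals, and the spread of NCD and of JQF had to be taken as that of HFD. The livers were perfused, digested with enzymes and freed of red cells and dead cells, and no sort for lymphocytes is mentioned. The labels call the material immune cells and a haematopoietic stem cell line, which does not describe a suspension in which hepatocyte, endothelial, macrophage, T and B cell transcripts were all present.

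ILC1 are tissue-resident lymphocytes that share NKp46, NK1.1, the transcription factor T-bet and interferon gamma production with natural killer (NK) cells. In mouse liver they are told apart from circulating NK cells by CD49a, CXCR6 and CD200R1, by the death ligand TRAIL (Tnfsf10), and by the absence of Eomes and of most Ly49 receptors, which the Klra genes encode. NK cells rely on perforin and granzymes and patrol the blood, whereas ILC1 stay in the sinusoids and are known as an early source of cytokines. Type I interferon acts on both through a complex of transcription factors that binds the interferon-stimulated response element before the genes it induces.

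The promoters of Ifit1 and Ifit3, antiviral genes of the interferon response which were among the largest differences between libraries below, are shown for this element. Each run holds the 250 bases before the start of transcription on the plus strand, from RefSeq on GRCm38.p6, and capitals mark matches to GAAA, any 2 bases and GAAA again, read on the opposite strand.
Ifit1, chr19:34640639-34640888: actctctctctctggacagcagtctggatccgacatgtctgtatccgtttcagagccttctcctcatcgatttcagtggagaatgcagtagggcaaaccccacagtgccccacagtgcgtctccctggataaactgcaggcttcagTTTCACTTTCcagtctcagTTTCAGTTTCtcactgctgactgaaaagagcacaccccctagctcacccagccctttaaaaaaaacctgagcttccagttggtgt
Ifit3, chr19:34583279-34583528: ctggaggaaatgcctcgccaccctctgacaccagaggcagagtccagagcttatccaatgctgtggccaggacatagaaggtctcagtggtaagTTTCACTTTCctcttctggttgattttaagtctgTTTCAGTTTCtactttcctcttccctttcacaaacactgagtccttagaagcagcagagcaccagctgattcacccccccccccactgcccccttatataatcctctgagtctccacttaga
Ifit1 held 2 matches, at 104 and 85 bases before the start, and Ifit3 held 2, at 156 and 122. Searched on both strands, the letters occurred in 12 of the 23 genes of the interferon-stimulated list that matched a promoter (52.2%) and in 936 of 27025 genes overall (3.46%). Neither of the Ifit2 windows held a match, and Isg15 held 3 that overlapped. A match is a description of the letters only.

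The genes of the gate varied among the ILC1-like cells. Klrb1c was detected in 93.6% and Ncr1 in 82.7% of the 543 cells. Among residency genes, Il7r, the receptor chain for interleukin 7, was found in 75.7%, Cd200r1 in 63.5%, Cxcr6 in 55.2% and Itga1 in 53.6%. In 1628 B cell-like cells (at least 3 UMIs of Cd79a and Cd79b, none of CD3), which should lack them, the shares were 0.676%, 0.491%, 4.42%, 3.32%, 0.921% and 7.13% in the same order. The median depth was 7903 UMIs in ILC1-like and 6886 in B cell-like cells. All 4 residency genes were present in 98 cells, 3 in 191, 2 in 128 and a single one in 126.

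Itga1 needs care in the NCD library. It was found in 86.0% of ILC1-like cells there, with 35.8% and 60.0% for HFD and 68.9% for JQF, but also in 17.7% of NCD B cell-like cells, against 0.935%, 4.91% and 3.81%. At the edges of the gate, 48 cells passed with a single residency UMI (1, 14, 10 and 23 in NCD, HFD replicates 1 and 2, and JQF), and 130 that met every other condition had none (5, 35, 52 and 38). Cells with exactly 1 CD3 UMI, the most allowed, numbered 10, 19, 6 and 22, and those just outside with 2 numbered 4, 8, 2 and 15. A single UMI of Ncr1 and Klrb1c together let in 15, 20, 12 and 30 cells, with a median of 8.0, 32.0, 49.5 and 6.5 UMIs over 19 receptors and adaptors shared by NK cells and ILC1, against 101, 94.0, 77.0 and 83.0 in the gated cells with no CD3 UMI. Just outside, 3468, 444, 1346 and 900 cells had neither gene and met the other conditions, with a median of 2.0, 11.0, 2.0 and 4.0 such UMIs. In NCD, HFD replicate 1 and JQF the median at this limit thus lay closer to that of the cells left out.

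Markers outside the gate were found in part of the cells. Tbx21, which encodes T-bet and is shared with NK cells, was detected in 77.2%, 80.7%, 66.0% and 69.7% of cells in NCD, HFD replicates 1 and 2, and JQF, and Tnfsf10 in 64.9%, 61.0%, 57.0% and 45.5% (5.53% of B cell-like cells had a Tnfsf10 UMI). The defining genes of ILC2 and ILC3 Il1rl1, Il13, Il5, Il22 and Il17a were at 0 in all 4 libraries. However, 72 cells carried transcripts of endothelial cells, macrophages, neutrophils or hepatocytes above the limits given next, and 23 had fewer than 5 UMIs over the 19 shared receptors and adaptors.

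A lymphoid subset of 463 cells (42, 240, 82 and 99 per library) was therefore formed after the data had been seen. Its cells had fewer than 5 UMIs over endothelial, macrophage, monocyte and neutrophil genes, fewer than 20 over hepatocyte genes, and at least 5 over the shared receptors. Ly6c2, a monocyte gene that is also on the list of NK genes used below, was left out of this limit. The cells left out held 39.9% of the ILC1-like UMIs in NCD, 10.7% and 31.9% in HFD replicates 1 and 2, and 31.8% in JQF. Summed over 8 endothelial genes, the gated cells had 5574, 16.9, 993 and 1025 counts per 1000000 UMIs (CPM) in NCD, HFD replicates 1 and 2, and JQF, and the subset 86.2, 4.73, 27.2 and 8.35. The 10 hepatocyte genes summed to 280, 3366, 778 and 523 CPM in the gate and 166, 69.9, 192 and 324 in the subset. The 14 T cell genes, on which the subset set no limit beyond the gate, summed to 753, 1052, 946 and 907 CPM in the gate. In the subset they summed to 1125, 1133, 1248 and 1229 CPM. In the same subset of NK-like cells (defined below) they summed to 762, 787, 803 and 793 CPM. The 10 macrophage and monocyte genes summed to 28.6, 478, 2867 and 2445 CPM in the gate and to 24.9, 165, 392 and 159 in the subset. These sums include Ly6c2, so they are not all macrophage transcripts. In gated NCD NK-like cells the other 9 genes were at 0, and the sum was 132 CPM.

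Each comparison below is given for the gated cells and for the subset. Genes on which the subset was formed stayed in its fits, with 24 to 31 of them tested and at most 15 called in any comparison, and these calls are included in the counts over all genes but not used as results. The edgeR test shared its spread across genes, and in the comparisons between groups this weighed 2.35 prior degrees of freedom in the gate and 32.2 in the subset against 1 from the HFD pair. P-values of the subset therefore rest mainly on the spread of all genes rather than on each gene's own HFD libraries, and can be small for a gene whose HFD libraries lie far apart.

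The libraries also differed in depth and make-up. ILC1-like cells of NCD had a median of 10990 UMIs, against 7176 to 7665 in the others, and ribosomal protein genes took 7.08% of their UMIs, against 14.4% to 15.5%. The same low share was seen in NCD NK-like (6.85%) and NKT-like cells (10.7%, against 18.7% to 19.7%). The library and the diet cannot be told apart for NCD or for JQF. Barcodes shared between 2 libraries numbered 14 to 30, at most 0.334% of the smaller library, and 28 ILC1-like cells were marked as likely doublets but kept.

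ILC1-like cells were 0.954% of all kept cells in NCD (95% exact interval 0.723 to 1.23), 3.90% (3.44 to 4.40) and 0.975% (0.794 to 1.18) in HFD replicates 1 and 2, and 1.55% (1.29 to 1.83) in JQF. The intervals cover counting error only. Of cells with a UMI of Ptprc, the gene of the leukocyte marker CD45, the shares were 2.42%, 4.26%, 1.17% and 1.77%, so that NCD stood above JQF and HFD replicate 2, and the difference of HFD from NCD was 0.289 percentage points instead of 1.48. Ptprc was found in 2353 of 5975 kept cells in NCD, 5968 of 6516 and 8577 of 10259 in HFD, and 7446 of 8540 in JQF. The gap between the HFD libraries in the share of kept cells exceeded both differences between groups, with a mean of 2.44% ± 2.07 (SD, n = 2). The difference from NCD (two-sided exact permutation test, p = 0.667) and that between JQF and HFD (exact permutation p = 1.0) did not pass, and the smallest p that 3 arrangements allow is 0.333.

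**Figure D1:**
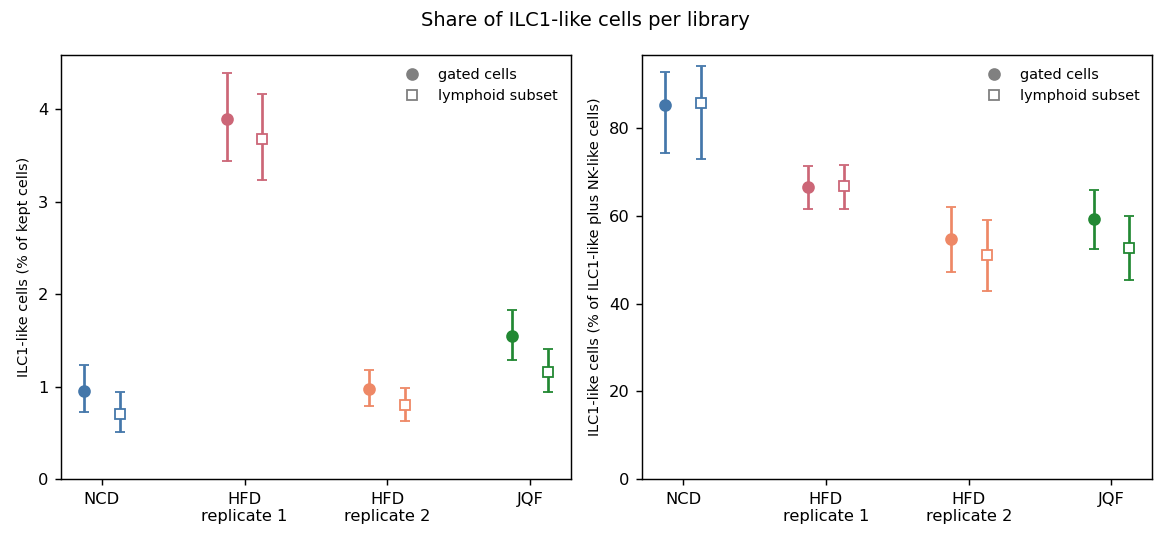
Share of ILC1-like cells in each library, of all kept cells (left, percent) and of ILC1-like plus NK-like cells (right, percent), with points for gated cells, open squares for the lymphoid subset and bars for 95% exact binomial intervals. HFD replicate 1 stands at 3.90% of kept cells, above the other 3 libraries, and NCD has the highest share on the right, 85.1%.

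Of ILC1-like plus NK-like cells together, the ILC1-like share was 85.1% (74.3 to 92.6) for NCD, 66.5% and 54.6% for the HFD libraries and 59.2% for JQF. NK-like cells, which met the same limits but had at least 1 UMI of Eomes or Klra8, numbered only 10 in NCD, and 128, 83 and 91 in the others. The NCD share thus exceeded the other 3 in these libraries, with no test able to reach 0.05.

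The comparison of ILC1-like with NK-like cells asked which genes beyond the gate separate the classes within a library. ILC1-like cells had more of the phosphatase gene Inpp4b, the aryl hydrocarbon receptor gene Ahr, Rora, Xcl1 and Gzmc, and less of Gzma and Prf1. The Ly49 genes Klra3, Klra4 and Klra7 and S1pr5, a gene for leaving tissue, were lower too but are not used as support. The classes were split on Klra8, a near-identical paralog of the Klra genes. S1pr5 and Klra4 could enter the test only through NK-like cells, and Gzmc entered it mainly through ILC1-like cells. With summed counts, the library as a block and the genes of the gate left out, 134 of 7870 genes were higher (1.7%) and 81 lower (1.03%) in ILC1-like cells (edgeR quasi-likelihood test, adjusted p under 0.05). In the subset of 6580 tested genes these were 380 (5.78%) and 199 (3.02%). The 215 genes called in the gate became 14 without HFD replicate 2, 67 without HFD replicate 1, 125 without JQF and 335 without NCD. The NK-like gate set no condition on residency genes, and an NK cell whose Eomes and Klra8 transcripts were both missed could be counted as ILC1-like.

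**Figure D2:**
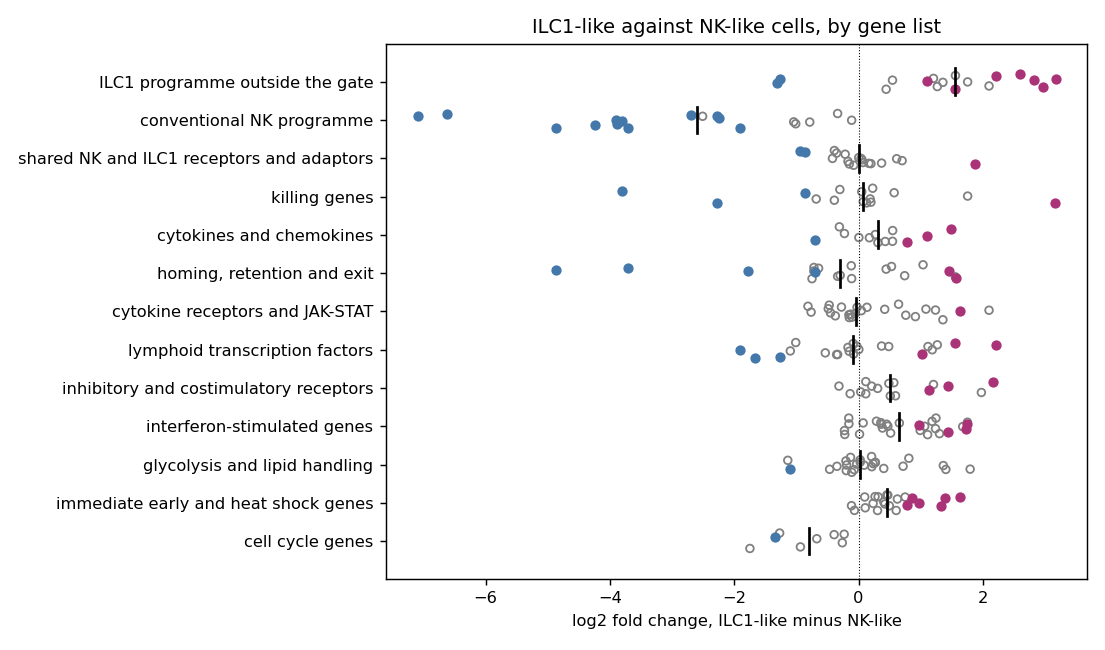
Log2 fold change between ILC1-like and NK-like gated cells (horizontal axis, positive when higher in ILC1-like) for the tested genes of each list, with purple and blue points for genes higher and lower at an adjusted p under 0.05, open points for the rest and black bars for list medians. The conventional NK programme lies wholly below 0 with a median of -2.60, and the ILC1 programme mostly above 0 with a median of 1.56. The NK list includes Klra genes and S1pr5, which are not used as support.

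Of 17 tested genes of an ILC1 programme that excluded the gate, 7 were higher and 2 lower, with a median log2 fold change of 1.56, where that over all genes was near 0. Inpp4b (chr8:81342556-82127914, GRCm38) had 731, 1271, 1113 and 906 CPM in ILC1-like cells of NCD, HFD replicates 1 and 2, and JQF, and 100, 245, 84.9 and 66.5 in NK-like cells. The classes did not overlap, and the difference was 9.01-fold (log2 3.17 ± 0.26 SE, edgeR adjusted p = 0.00189). Ahr, a sensor of dietary and microbial ligands that resident lymphocytes depend on, stood at 145, 136, 112 and 121 CPM against 107, 25.1, 15.4 and 12.7 (log2 2.22 ± 0.41, adjusted p = 0.0364). Its NCD values lay close together, and NCD NK-like cells were few and held endothelial transcripts. Xcl1, a chemokine that draws cross-presenting dendritic cells, was 2.14-fold higher (adjusted p = 0.0198), and Tmem176a, Tmem176b, Podnl1 and Rora also passed. Reads of Tmem176a and Tmem176b, neighbouring paralogs, may be shared.

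Tnfsf10, which encodes TRAIL, did not pass in the gated cells (log2 1.76 ± 0.43, edgeR adjusted p = 0.0906), with 131, 178, 164 and 129 CPM against 144, 50.3, 23.1 and 22.2. In the subset the NCD NK-like value was 52.6, and the difference passed at 5.36-fold (adjusted p = 7.16e-06). There 14 of 17 programme genes were higher, the added ones being Tnfsf10, Gpr183, Il21r, Il2ra, Ltb, Ikzf2 and Icos. Ctla2a and Prdm1 were lower in both settings (Ctla2a 2.48-fold, Prdm1 2.41-fold in the gate), against the list's name. Ctla2a encodes a protease inhibitor and Prdm1 the repressor Blimp-1. Cd69, a gene of tissue retention, did not pass in either (log2 0.44 and 0.63, adjusted p = 0.602 and 0.112).

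The conventional NK programme showed the opposite pattern, with 12 of 18 genes lower, none higher and a median of -2.60. Klra3, Klra4, Klra7, S1pr5, Cma1 and Klrg1 are included in these values, and no count or median was made without them. S1pr5, Cma1, Klrg1 and Klra4 were at or near 0 in most ILC1-like libraries and could enter the test only through NK-like cells. Gzma (chr13:113093825-113100981), a granzyme, had 106, 57.3, 303 and 1058 CPM in ILC1-like and 2204, 2947, 3788 and 3387 CPM in NK-like cells. The classes did not overlap although the ILC1-like libraries ranged widely (log2 -3.81 ± 0.60, edgeR adjusted p = 0.0217). Prf1, which encodes perforin, was 4.87-fold lower (adjusted p = 0.00088), with 76.5 to 140 against 436 to 567 CPM. S1pr5, a receptor for leaving tissue, had 0, 4.22, 0 and 0 CPM in ILC1-like against 50.2, 58.7, 54.0 and 38.0 in NK-like cells. Klra3, Klra7, Klra4, Itga2 (CD49b), Itgam, Cma1, Irf8 and Klrg1 were also lower, while Klra9 did not pass in the gate (log2 -2.51, edgeR adjusted p = 0.056). Klra genes are near-identical paralogs of Klra8, which the gate used, so their levels are uncertain. Zeb2 and Klf2 passed only in the subset (Zeb2 log2 -1.01 in the gate and -2.27 in the subset).

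Within the killing genes the class difference went both ways. Gzmc (chr14:56231441-56234656) had 76.4, 107, 267 and 185 CPM in ILC1-like and 6.28, 33.5, 1.93 and 19.0 in NK-like cells, an 8.92-fold difference (edgeR adjusted p = 0.0377). It was carried by few cells, 10, 34, 23 and 21 in the 4 libraries, and the 3 highest cells held 78.6%, 41.7%, 61.6% and 60.5% of its UMIs. Near 0 in NK-like cells of NCD and HFD replicate 2, it entered the test mainly through ILC1-like cells. Gzma was found in 4, 15, 26 and 39 cells, and only 14 cells had both. Gzmb did not differ beyond its spread (log2 -0.30 ± 0.44, adjusted p = 0.858), nor did Fasl pass. Reads of Gzmb and Gzmc, paralogs in 1 cluster, may be shared.

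Cytokine genes Xcl1, Tnf and Ccl4 were higher and Ccl5 lower of 13 tested. Tnf had 80.5, 316, 316 and 280 CPM in ILC1-like and 6.28, 102, 106 and 152 in NK-like cells (log2 1.49 ± 0.27, edgeR adjusted p = 0.0322). Ccl4, a chemokine that attracts other lymphocytes and monocytes, was 1.73-fold higher (adjusted p = 0.0322). Among receptors, Cd226, which recognises nectin ligands, was 3.66-fold higher (adjusted p = 0.0095), and Cd160, Ctla4 and Cd7 were also higher. Cxcr3 and Rgs1 were higher, and the integrin genes Itga4 and Itgb1 lower, among the homing genes.

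Of 19 shared receptors and adaptors, Cd226 was higher, Nkg7 and Klre1 were lower and 16 did not pass, with a median of 0.00. Tbx21 differed by log2 -0.17 ± 0.18 (edgeR adjusted p = 0.78), Il2rb by -0.15 ± 0.12 (adjusted p = 0.695) and Klrk1, which encodes NKG2D, by -0.08 ± 0.15 (adjusted p = 0.907). Interferon-stimulated genes leaned upward against NK-like cells, with 4 of 27 higher (Isg15, Ifi203, Rtp4 and Ifit3), 23 of 27 above 0 and a median of 0.66. Over all genes 1.7% were higher. In the subset 10 of 23 were higher (5.78% over all genes), led by Ifit1 at 5.18-fold (adjusted p = 3.79e-07). Against NKT-like cells, described below, the list did not lean. There 3 of 30 were higher and 3 lower in the gate (median 0.05), and 2 of 28 higher and 5 lower in the subset (median -0.06). Immediate early and heat shock genes, which digestion of tissue is known to raise, had 6 of 22 higher (Hspa1a, Hspa1b, Dusp1, Atf3, Jun and Fos), and the part of handling was not tested.

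The 10 largest differences in each direction included further genes of the class. Cd200r2, a paralog of the gate gene Cd200r1 with possible shared reads, was 12.4-fold higher, and Atp8a2, Zmat4, Adam19 and Ckb were 22.5-fold, 16.4-fold, 8.06-fold and 7.86-fold higher (edgeR adjusted p = 0.00324, 0.00995, 0.0273 and 0.0101). Atp8a2, which encodes a lipid flippase, had 416, 18.8, 67.9 and 203 CPM in ILC1-like cells and 25.1, 2.79, 1.93 and 3.17 in NK-like cells. These NK-like values are a few UMIs each, so Atp8a2 could enter the test only through ILC1-like cells and is not used as support. Apoc2, a hepatocyte gene, passed in the gate at 9.03-fold with 234 CPM in HFD replicate 1, where 3 cells held 98.0% of its UMIs, and at most 5.57 CPM in the subset, and Ttr was the only member of the hepatocyte list to pass. Cd74, which antigen-presenting cells use, passed in both settings. Klra1 and D5Ertd615e were 16.4-fold and 26.9-fold lower.

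NKT-like cells, which had an NK receptor UMI, at least 2 CD3 UMIs and at least 1 of Trac (179, 238, 196 and 1253 cells), were the second reference. Of 9960 genes, 817 were higher (8.2%) and 581 lower (5.83%) in ILC1-like cells (edgeR adjusted p under 0.05), and 975 and 443 when scaled by library totals alone. Klrb1b, an inhibitory receptor gene next to Klrb1c, was 19.1-fold higher, with 587 to 774 against 28.2 to 40.8 CPM (adjusted p = 4.75e-05). The adaptor genes Tyrobp and Fcer1g, through which innate receptors signal, were 5.61-fold and 5.03-fold higher, and Klrc1, Klrd1, Cd244a and Fcgr3 were higher too, 7 of the 19 shared genes in all. Hcst, which encodes the adaptor DAP10, was lower in the gate, and the count in the subset is not given because the subset was formed on these genes, a limit that removed 23 ILC1-like and 0 NKT-like cells.

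Gzmc was also 21.0-fold higher than in NKT-like cells (edgeR adjusted p = 0.000119), Ccl4 3.76-fold, Ccl3 4.68-fold, Xcl1 by log2 1.43 and Ahr 3.40-fold. The ILC1 programme was split, with 5 of 18 higher (Ahr, Tnfsf10, Xcl1, Tmem176a and Tmem176b), 5 lower (Icos, Il21r, Cd69, Ctla2a and Prdm1) and a median of -0.45. Of 16 cytokine genes 4 were higher and Ifng was lower (log2 -0.56, adjusted p = 0.00958), which did not pass in the subset. Kit, the stem cell factor receptor gene, had 199, 178, 88.9 and 83.5 CPM against 27.9, 7.04, 5.37 and 2.12 (16.5-fold). T cell genes were lower in 9 of 10 tested, and Il4 stood at 0.469 to 9.55 CPM against 125 to 565 in NKT-like cells (65.5-fold lower, adjusted p = 0.000119). Cd40lg, which encodes the ligand that T cells present to CD40 on B cells, and Icos, a costimulatory receptor gene of T cells, were 63.8-fold and 3.96-fold lower. The T cell list holds genes linked to the CD3 and Trac limits of the gate. Il4, Cd40lg and Icos are outside that list but were compared with NKT-like cells chosen on the same limits. At its low level in ILC1-like cells, Il4 could enter the test only through NKT-like cells, so its fold and p are not used as support. Of 8 endothelial genes, 7 were higher in the gated ILC1-like cells, where their sums are given above. In the subset 536 of 8945 genes were higher (5.99%) and 496 lower (5.54%), with Kit and Gzmc again higher and Il4 and Cd40lg lower.

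The comparison of HFD with NCD asked how these cells differ between libraries in which diet cannot be told apart from the library. In the gated cells no gene of 10012 passed (0.0%, edgeR adjusted p under 0.05), with the lowest adjusted p = 0.187, 2116 genes at an unadjusted p under 0.05 and 94 called by DESeq2. In the subset 554 of 7920 genes were higher (6.99%) and 1082 lower (13.7%), against 40 and 313 with DESeq2, and 891 and 740 when scaled by library totals, where the median over all genes shifted from 0.08 to 0.33 on the log2 scale. In HFD 12 of 26 interferon-stimulated genes were higher, 4 of which had under 3 UMIs in NCD, while 16 of 22 immediate early and heat shock genes and 15 of 25 cytokine receptor and JAK-STAT genes were lower. Every subset value of NCD rests on 42 cells. Among the gated cells, genes with the smallest p included Ifit1, Stmn1, Slpi, Eno1 and S100a10, higher in HFD, and Robo1, Vps37b, Lncpint, Jmy and Taf4b, lower. Eno1, a glycolytic enzyme, had 12.3, 122, 141 and 111 CPM there (edgeR adjusted p = 0.187). Robo1 was at 0 in every library of the subset, and Slpi had a mean of 24.1 CPM in HFD in the gate and 2.60 in the subset.

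Of 26 interferon-stimulated genes tested in the subset, 12 were higher and 1 lower, with a median of 1.09, or 1.02 with genes under 3 UMIs in the lower group set at that floor. Ifit2, Ifit3, Ifit3b and Xaf1 were under 3 UMIs in NCD and could enter the test only through the other libraries, so their calls add little to the count. The macrophage and monocyte list, which includes Ly6c2 of the NK list, also had its lowest sums in NCD, as given above. Lyz2, the lysozyme gene of macrophages, had 0, 15.8, 45.3 and 13.9 CPM in the subset. The part of such transcripts was not tested. Ifit1 (chr19:34640871-34650009), whose promoter is printed above, had 13.6, 873, 1025 and 646 CPM in the subset and 49.1, 790, 776 and 547 in the gated cells of NCD, HFD replicates 1 and 2, and JQF. NCD was the lowest library in both settings by a wide margin. The difference was log2 5.88 ± 0.44 in the subset (edgeR adjusted p = 3.41e-12) and 3.92 ± 0.23 in the gate (adjusted p = 0.187). Ifit3 stood at 0, 162, 132 and 76.6 CPM in the subset. Against a floor of 3 UMIs in the NCD library it was at least 21.6-fold higher in HFD, and its near-identical neighbour Ifit3b at least 12.1-fold.

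**Figure D3:**
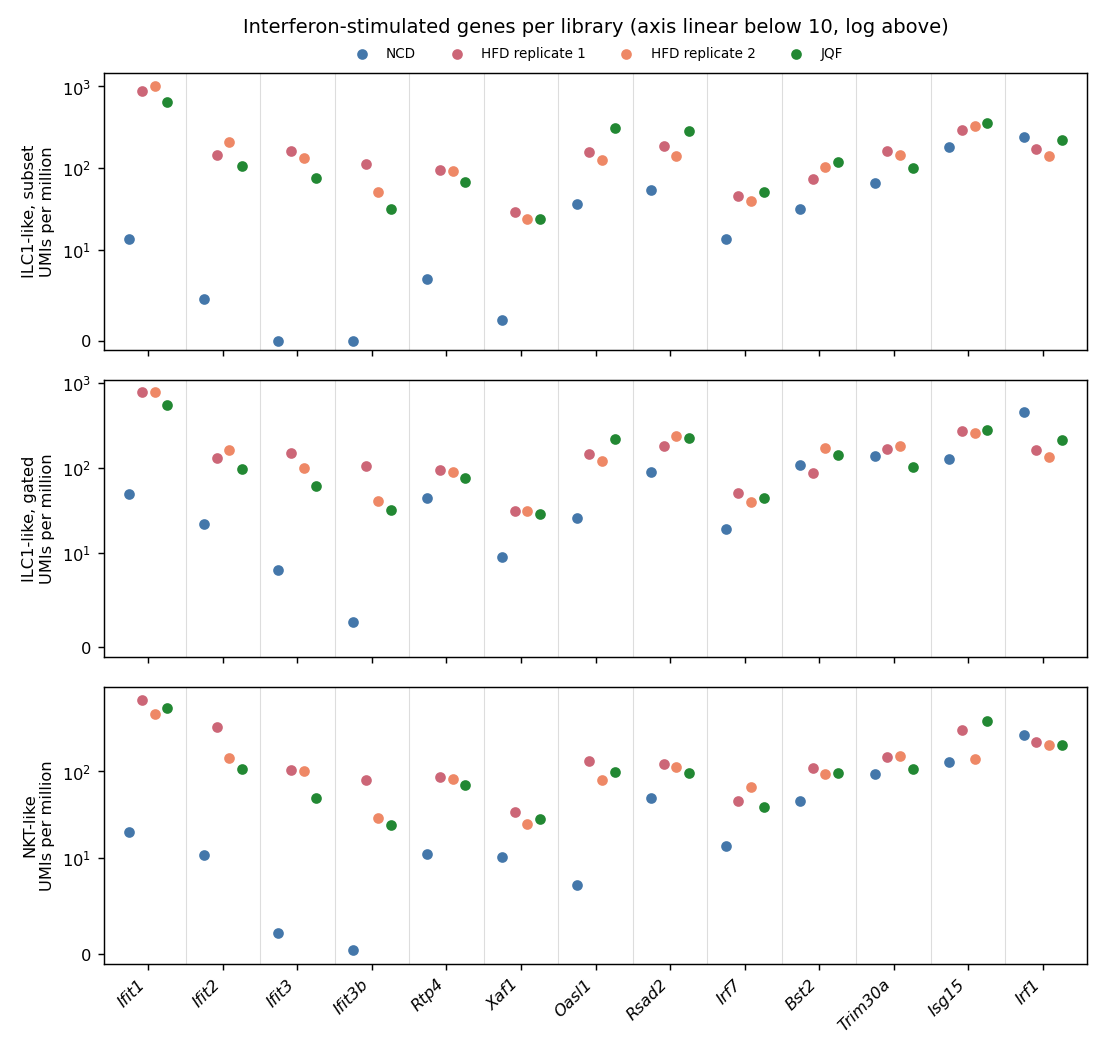
Level of 13 interferon-stimulated genes in CPM (vertical axis, linear below 10 and log above) in each library, for the lymphoid subset of ILC1-like cells (top), all gated ILC1-like cells (middle) and NKT-like cells (bottom). NCD is lowest for Ifit1 in all 3 panels, at 13.6, 49.1 and 20.3, and not for Irf1.

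Rtp4 had 6.80, 94.0, 92.5 and 68.2 CPM in the subset (11.5-fold, edgeR adjusted p = 6.47e-06), and Ifit2, Oasl1, Rsad2, Xaf1, Trim30a, Bst2 and Irf7 were also higher. Oasl1, Rsad2 and Trim30a did not pass with DESeq2 (adjusted p = 0.0505, 0.115 and 0.334). Irf1, an early interferon and stress responsive regulator, was lower (log2 -0.83, adjusted p = 0.0133). Isg15 was at 181, 291, 330 and 356 CPM and did not pass (adjusted p = 0.155).

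Ifit1 was lowest in NCD in the other classes too, with 20.3, 675, 465 and 534 CPM in NKT-like cells and 13.1, 138, 209 and 151 CPM in the NK-like subset, whose NCD value came from 7 cells. Ifit1 was found in 12.3%, 48.8%, 54.0% and 32.6% of gated ILC1-like cells, against 4.91% of B cell-like cells. Cxcl10, an interferon-induced chemokine, had 77.1, 1003, 580 and 426 CPM in the ILC1-like subset (8.80-fold, edgeR adjusted p = 2.14e-08), but 461, 919, 599 and 388 in the gate, where 3 NCD cells held 69.8% of its UMIs.

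Genes of the ILC1 programme differed in both directions between HFD and NCD, with 3 higher in HFD (Ltb, Tmem176b and Ctla2a) and 7 lower of 18 in the subset. Rora (chr9:68653786-69388246), a nuclear receptor needed by innate lymphoid cells, had 1309, 491, 482 and 235 CPM in the subset and 1503, 462, 387 and 196 in the gate (subset log2 -1.66 ± 0.23, edgeR adjusted p = 1.61e-06). NCD was above the other libraries and JQF below them. In NCD, Rora was found in 100.0% of the 15 gated cells outside the subset (at most 77 UMIs, median depth 23226). In the NCD subset it was found in 92.9% (at most 45 UMIs, median depth 10066). In HFD and JQF the share was lower outside the subset than in it. Its background in B cell-like cells was not measured. Il21r, Icos, Cd69, Ikzf2, Il2ra and Ahr were lower in HFD as well, Il21r by log2 -3.21 ± 0.25 (edgeR adjusted p = 9.02e-12). Of 25 cytokine receptor and JAK-STAT genes, 15 were lower, among them Stat3, Stat4, Socs1, Socs3, Cish and Il12rb2. Tcf7, a factor of less differentiated lymphocytes, was higher at 52.2, 174, 138 and 62.7 CPM (log2 1.38, adjusted p = 0.00195).

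Effector genes moved in both directions. Ccl3 (1529, 235, 435 and 1448 CPM), Ifng (758, 225, 357 and 576 CPM) and Ccl4 (7088, 3058, 4288 and 8917 CPM) were lower in HFD than in NCD in the subset, by log2 -2.45, -1.63 and -1.17 (edgeR adjusted p = 2.19e-08, 1.17e-05 and 0.0011). JQF stood above both HFD libraries for all 3 genes. Ltb and Tnf were higher by log2 1.38 and 1.15 (adjusted p = 0.000306 and 0.00227). Gzmb, Prf1 and Fasl were lower, Gzmb with 739, 83.5, 466 and 997 CPM.

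Immediate early and heat shock genes were lower in 16 of 22 and higher in none, with a median of -1.25, and the receptor-induced nuclear factors Nr4a1, Nr4a2 and Nr4a3 were lower too. Nr4a3 had 2248, 175, 72.6 and 698 CPM (log2 -4.32 ± 0.29, edgeR adjusted p = 3.42e-13), and 2295, 188, 171 and 632 in NKT-like cells. Fos had 3146, 1128, 1598 and 2719 CPM. NCD also had the low ribosomal protein share given above. In JQF that share was 14.4%, against 15.0% and 15.5% in HFD, while 12 of these 22 genes were higher in JQF than in HFD. The part of tissue handling was not tested.

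**Figure D4:**
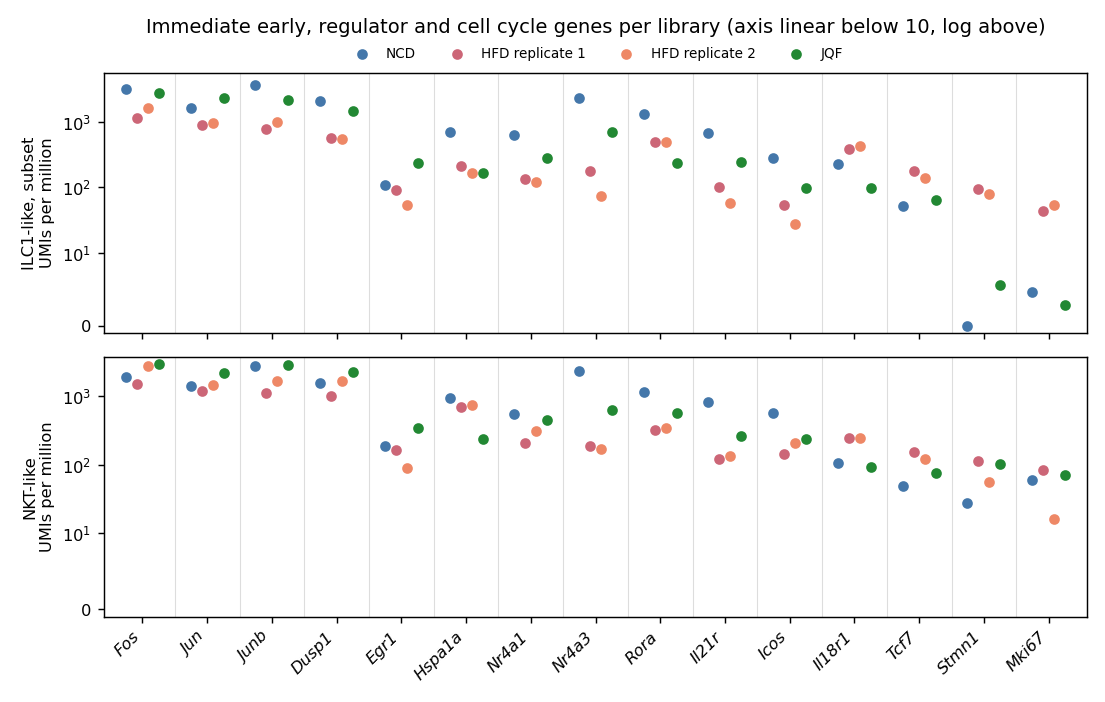
Level of immediate early, regulator and cell cycle genes in CPM (vertical axis, linear below 10 and log above) in each library, for the lymphoid subset of ILC1-like cells (top) and NKT-like cells (bottom). Nr4a3 is highest in NCD in both panels (2248 and 2295), while Stmn1 is near 0 in NCD and JQF only in the top panel.

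Among cell cycle genes, H2afz and Hmgb2 were higher in HFD than in NCD (log2 0.79 and 0.76, edgeR adjusted p = 0.0326 and 0.0465). Stmn1, Mki67, Top2a and Pclaf had at most 2 UMIs in NCD and entered the test through the other libraries. Stmn1, a tubulin regulator of dividing cells, was at 0, 92.4, 78.0 and 5.57 CPM, at least 12.5-fold higher in HFD than the NCD floor. Mki67 was at 4.54, 43.6, 52.6 and 2.78 CPM. These came from few cells, as 3 gated cells held 66.3% and 79.4% of the Stmn1 UMIs and 83.5% and 91.7% of the Mki67 UMIs in HFD replicates 1 and 2. Among genes with the largest differences, Jmy, Taf4b, Epas1, Homer1 and Slc16a10 were lower in HFD, Jmy with 810, 38.9, 43.5 and 114 CPM (adjusted p = 4.15e-15). Lgr5, Abcb1b and Calca also passed, but 3 NCD cells held 100.0%, 94.8% and 97.4% of their UMIs.

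The comparison of JQF with HFD asked how these cells differ under the high-fat diet, where the formula cannot be told apart from the library. No gene of 10012 passed in the gated cells (0.0%, edgeR adjusted p under 0.05), with 480 genes at an unadjusted p under 0.05 and 1 called by DESeq2. In the subset 263 were higher (3.32%) and 45 lower (0.568%) in JQF. Gzma, Gzmb and Prf1 of 15 killing genes, Ccl3 and Ccl4, and 12 of 22 immediate early and heat shock genes were higher, and Il18r1, Rora and Tcf7 lower. Gzma, Gzmb, Ccl3 and Rora did not pass with DESeq2, as given below, which set no adjusted p for Prf1 and Tcf7. DESeq2 called 24 and 2 there, and scaling by library totals gave 128 and 41. In the gated cells Il18r1, Ramp1, Stmn1, Gnmt and Chl1 were among the genes with the smallest p that were lower in JQF (edgeR adjusted p = 0.906 each). Slc7a11, Saa3, Clec4d, Dmbt1 and Dhx40 were among those that were higher, and did not pass either. In JQF, Slc7a11 had 155 CPM in the gate and 1.39 in the subset, and Saa3 91.1 and 0. Clec4d had 108 and 2.78 CPM, and Dmbt1 265 and 5.57.

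Gzma had 177, 62.5, 401 and 1383 CPM in the subset and 106, 57.3, 303 and 1058 CPM in the gate. JQF was above both HFD libraries, and on the log scale the HFD libraries lay further apart than JQF and HFD replicate 2 (log2 2.82 ± 0.43, edgeR adjusted p = 5.13e-05). Without HFD replicate 1 the difference was log2 1.87, without HFD replicate 2 it was 4.62, and DESeq2 gave an adjusted p = 0.817. Gzma was found in 29.5% of gated JQF cells, against 5.91% and 26.0% in HFD and 1.47% of B cell-like cells, and 30 JQF cells had at least 5 UMIs, against 5 and 15. Gzmb was higher by log2 2.08 ± 0.41 (edgeR adjusted p = 0.00149, but 0.0549 when scaled by library totals and 0.996 with DESeq2), or 1.18 without HFD replicate 1 and 3.73 without HFD replicate 2. Prf1 was higher by log2 0.99 (edgeR adjusted p = 0.0231, and 0.132 with library totals).

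**Figure D5:**
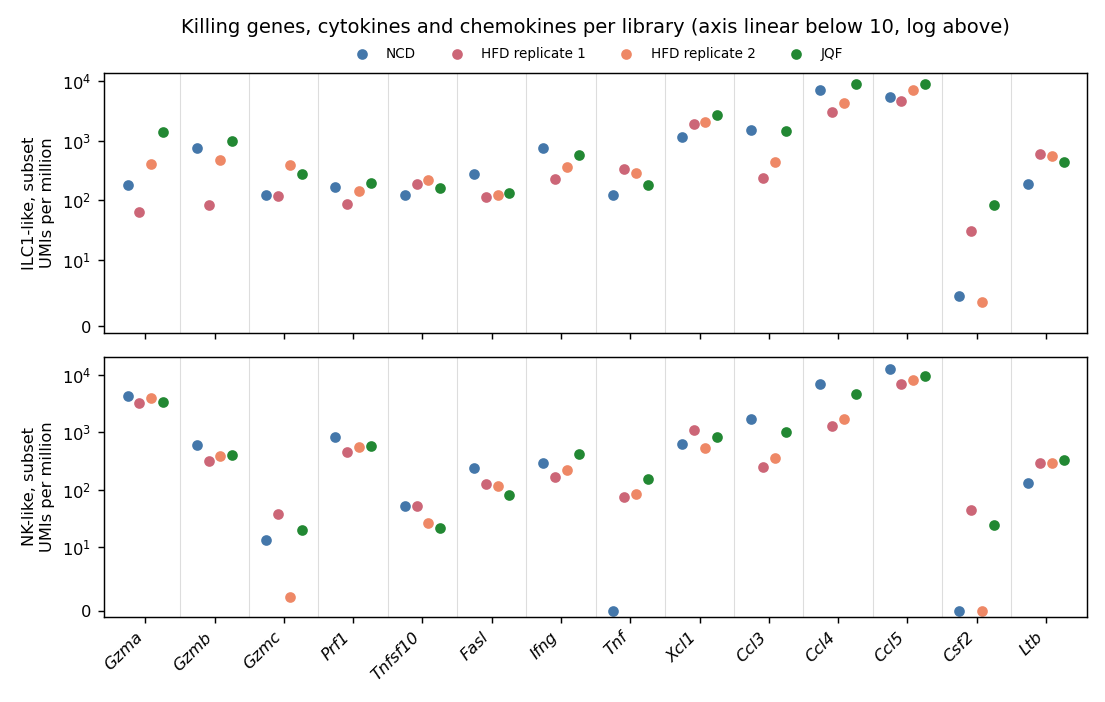
Level of killing genes, cytokines and chemokines in CPM (vertical axis, linear below 10 and log above) in each library, for the lymphoid subset of ILC1-like cells (top) and of NK-like cells (bottom). Gzma in ILC1-like cells runs from 62.5 in HFD replicate 1 to 1383 in JQF, and in NK-like cells stays between 3202 and 4364.

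The change of Gzma between JQF and HFD differed between ILC1-like and NK-like cells in the subset, by log2 3.13 ± 0.44 in a test of the difference itself (edgeR adjusted p = 0.000489, with 24.8 prior and 1 residual degrees of freedom). In all gated cells it was log2 2.88 and did not pass (adjusted p = 0.0808). NK-like cells had 3202 and 4029 CPM in HFD and 3443 in JQF. The differences also passed for Gzmb (log2 2.13, adjusted p = 0.0262), Klra9 (3.12, adjusted p = 0.000573), Il18r1, Rora, Cd69, Tnf, Nfkbia, Emb, Aff3 and Cd74, among 22 genes of 8377 (0.263%). In the gated cells Gzmb, Klra9, Il18r1, Rora, Cd69, Tnf and Nfkbia did not pass this test (adjusted p = 0.285, 0.083, 0.083, 0.083, 0.0882, 0.583 and 0.196). Emb and Aff3 were not among the 4 genes with a lower change in ILC1-like cells there, which were Apoa1, Apoc3, Gc and Ifit2. Cd69, Tnf and Nfkbia did not pass in ILC1-like cells of the subset alone (adjusted p = 0.158, 0.134 and 0.932). Klra9 and Gzma belong to the NK programme, of which Klf2 and Prf1 were also higher in JQF and none of 13 lower. Klra4, a further member, was found in 2 JQF cells and was at 0 in the other ILC1-like libraries, so that it entered the test only through JQF. Cells with a single residency gene made up 24.2% of the JQF subset, against 14.6% and 12.2% in HFD. Cells with all 4 made up 24.2%, against 19.6% and 15.9%. NK cells whose Eomes and Klra8 transcripts were missed could be among the ILC1-like cells, and their part in these changes was not tested.

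Il18r1 (chr1:40465552-40500854), the receptor for interleukin 18 that drives interferon gamma in innate lymphocytes, fell in JQF. It had 222, 377, 428 and 96.1 CPM in the subset and 142, 348, 309 and 75.0 in the gate. JQF was the lowest of the 4 libraries (log2 -1.93 ± 0.27, edgeR adjusted p = 1.69e-05, and 0.00523 with DESeq2). In NK-like cells of the subset it was at 422 and 487 CPM in HFD and 312 in JQF, and the difference of the changes was log2 -1.53 ± 0.29 (adjusted p = 0.0117). Rora was lower by log2 -0.92 (edgeR adjusted p = 0.0381, and 0.239 with DESeq2), whereas it was at 143 and 96.1 against 158 CPM in NK-like cells (difference -1.41, adjusted p = 0.0437). Aff3, Ramp1 and Emb were also lower in JQF.

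Cytokine and chemokine genes higher in JQF than in HFD were Ccl3, Ccl4, Ifng, Csf2 and Tnfsf11. Ccl4 rose 2.66-fold (edgeR adjusted p = 0.000609) and Ccl3 4.83-fold (edgeR 1.08e-06, but 0.112 with DESeq2). Ifng was higher by log2 1.14 (edgeR adjusted p = 0.0055, and 0.227 with DESeq2). Csf2 and Tnfsf11 rested on few cells, since 3 gated JQF cells held 85.2% and 100.0% of their UMIs. The log2 change of Csf2 was 2.03, or 4.52 without HFD replicate 1 and 1.61 without HFD replicate 2. Of 22 immediate early and heat shock genes 12 were higher and none lower, led by Egr1, Dusp1, Jun and Junb. Nr4a1, Nr4a2, Nr4a3, Icos and Entpd1 were higher of 17 inhibitory and costimulatory receptors and Nr4a factors. Of 26 interferon-stimulated genes 2 were higher (Oasl1 and Rsad2) and 1 lower (Ifit3b), with a median of -0.06. Ifit1 differed by log2 -0.42 ± 0.25 (adjusted p = 0.466).

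Stmn1, Mki67, Top2a and Pclaf were low in JQF too, and of these only Stmn1 held over 3 UMIs there. It was at 92.4 and 78.0 CPM in HFD and 5.57 in JQF (log2 -3.80 ± 0.47, edgeR adjusted p = 1.9e-06), while NKT-like cells of JQF had 101 CPM. The 10 hepatocyte genes summed to 69.9 and 192 CPM in HFD and 324 in JQF in the subset, but in the gate, where all 10 were lower in JQF without passing, to 3366, 778 and 523. Mt1, Osgin1 and Cxcl9 were among the largest differences together with Slc16a10, an amino acid transporter gene with 1318, 33.6, 81.6 and 586 CPM (12.7-fold, edgeR adjusted p = 1.39e-09), and with Atp8a2 and Homer1. Cxcl9 was at 0 in the NCD and HFD libraries of the subset, and 3 gated JQF cells held 97.2% of the Cxcl9 UMIs.

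Between JQF and NCD, each 1 library, no gene of 10012 passed in the gate (0.0%, edgeR adjusted p under 0.05), with 1314 at an unadjusted p under 0.05 and 24 called by DESeq2. In the subset 240 were higher (3.03%) and 464 lower (5.86%), against 20 and 71 with DESeq2, and 249 and 293 with library totals. Of 26 interferon-stimulated genes 11 were higher in JQF and none lower, Ifit2, Ifit3 and Ifit3b of the 11 having under 3 UMIs in NCD, with Ifit1 at log2 5.46 ± 0.46 (adjusted p = 6.71e-10). Gzma, Xcl1 and Ltb were also higher, Gzma by log2 2.87 ± 0.57 (adjusted p = 0.00111). Rora was lower by log2 -2.57 ± 0.30 (adjusted p = 6.92e-07), together with Ikzf2, Il21r, Icos and Il2ra. Hspa1a, Hspa1b, Dnajb1, Hsph1 and Dnaja1 were lower, while Egr1 and Dusp2 were higher. The JQF comparisons share the HFD and NCD libraries with the diet comparison, so their results are not independent of each other.

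Tested directly over all gated cells, the change from NCD to HFD differed between ILC1-like and NK-like cells for 13 of 10114 genes (0.129%), and that from HFD to JQF for 24 (0.237%). Satb1, a chromatin organiser of lymphocytes, and Nr3c1, the glucocorticoid receptor gene, were among the 13. Many of the 24 were endothelial or hepatocyte genes, whose lists summed to different levels in the libraries as given above.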

How the data were processed

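Single-cell RNA was captured from 4 mouse liver suspensions (NCD 1, HFD 2, JQF 1) with 10x 3' chemistry. The authors deposited raw UMI counts per gene and barcode, made per the labels with Cell Ranger 6.0.1 on mm10. The file headers name another Cell Ranger version, so whether intronic reads were counted is not settled, and levels of long genes could change with it. The authors' filters and clusters in Seurat 4.0.3 were not used here. Cells with 500 or more genes and no more than 20% of UMIs from mitochondrial genes passed the filter (5975, 6516, 10259 and 8540), and ILC1-like cells were taken by UMI limits on 19 genes, which entered no test. The ILC1-like cells and the gene lists were chosen with earlier results of these data known. ILC1-like totals were 732989, 2130952, 809557 and 1053376 UMIs.

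Counts were summed per library and class, scaled by TMM, filtered with filterByExpr and tested with the edgeR 4.0.16 quasi-likelihood test (R 4.3.3) with Benjamini-Hochberg adjustment over all genes. The group comparisons used all 4 libraries with a group term and had 1 residual degree of freedom, from the HFD pair, to which edgeR added 2.35 prior degrees of freedom (32.2 in the subset) by sharing the spread across genes. Class comparisons used the library as a block, and differences between classes an interaction term. SE was the fold change divided by the root of the F statistic. Shares used exact Clopper-Pearson intervals (95%) and exact permutation tests. DESeq2 1.42.0, other scalings, no filter, doublet removal by a simulated-neighbour score, stricter cells or gates, thinning to 3000 UMIs and leaving out libraries were alternatives. Named genes were list members that passed, plus the 10 largest differences each way with an adjusted p under 0.05 at least 50 CPM in the higher group and both HFD libraries on the same side, or the 5 smallest p where fewer than 3 passed. A few genes beside these, such as Tnfsf10, Cd69, Gzmb, Isg15 and Ifit1 in the class comparison, were chosen after their values were seen. The code was tested on simulated counts with a spread below that of every gated comparison, which does not show how well real differences would be found. Of 308 listed genes 306 matched. Some list members that passed are not reported here. Promoters came from RefSeq on GRCm38.p6.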

Additional observations from a re-analysis of the deposited data

Results flagged for a closer look

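The change from NCD to HFD differed between ILC1-like and NK-like cells for 13 of 10114 genes (0.129%) by a test of the difference (edgeR adjusted p under 0.05), of which 12 met the rule for naming. In log2 units the change in ILC1-like minus that in NK-like cells was -1.93 for Fryl, -3.0 for Kcnq5, -0.9 for Malat1, -1.91 for Nr3c1, -2.41 for Pik3r5, -4.07 for Prr5l, -1.95 for Satb1 and -4.65 for Taf4b. It was 3.7 for Rasgef1b, 2.61 for Rhob, 3.54 for Tiam2 and 4.27 for Vcam1. Nr3c1, the glucocorticoid receptor gene, had 2246, 589, 581 and 603 CPM in ILC1-like and 320, 270, 320 and 234 CPM in NK-like cells of NCD, HFD replicates 1 and 2, and JQF. All 12 rest on 10 NK-like cells of the NCD library, whose part in the result was not tested.

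The change from HFD to JQF differed between the classes for 24 genes (0.237%). For Adam23, Aqp1, Clec4g, Dnase1l3, Gpihbp1, Gpr182, Id3, Igfbp7, Plpp1 and Stab2, several of them known endothelial genes, the difference was 8.3, 6.73, 9.01, 8.65, 9.94, 8.84, 4.24, 6.5, 9.63 and 9.8. For the hepatocyte genes Apoa1, Apoc3 and Gc it was -4.89, -6.66 and -5.8. The 8 genes of the endothelial list, which holds Clec4g and Stab2, summed to 16.9 and 993 CPM in HFD and 1025 in JQF in ILC1-like cells, and to 45.6, 527 and 20.6 in NK-like cells. The 10 of the hepatocyte list, which holds Apoa1 and Apoc3, summed to 3366, 778 and 523 in ILC1-like cells and 150.0, 150.5 and 361 in NK-like cells. The signs of Apoa1, Id3 and Igfbp7 turned in the subset. Klra4 (7.35) was found in 2 ILC1-like cells. Ifit2 (-2.62) had 131 and 162 CPM in HFD and 97.8 in JQF in ILC1-like cells, and 39.1, 46.3 and 168 in NK-like cells.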

How the results depend on the processing

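The labels pair no mice across the groups, so comparisons between groups were not paired, while class comparisons held the library as a block. The lymphoid subset and its alternatives were chosen after seeing the data. Genes called in the gated cells between HFD and NCD, JQF and HFD, and JQF and NCD, 0 in each case, became 2146, 361 and 1145 without the filter on low counts, 94, 1 and 24 with DESeq2, 1104, 253 and 475 after thinning to 3000 UMIs, and 1636, 308 and 704 in the subset. Within the subset DESeq2 called 353, 26 and 91, and library totals gave 169 for JQF against HFD. For ILC1-like against NK-like cells the 215 became 944 without the filter, 42 without the library block, 371 with doublets removed, 355 with the stricter gate, 433 thinned, 579 in the subset, and 14 to 335 with 1 library left out. Against NKT-like cells the 1398 became 2313 without the filter, 255 without the block, 479 thinned, and 658 (without JQF) to 1471 (without HFD replicate 1). The 13 differences of change from NCD to HFD became 8 with DESeq2 size factors, 7 with library totals, 152 without the filter, 2 with DESeq2 and 70 in the subset, and the 24 from HFD to JQF became 277 without the filter and 1 with DESeq2. Signs turned for Hmgb2 (log2 0.077, NKT-like comparison, thinned) and, in the subset, for the differences of change of Apoa1 (0.12), Id3 (-1.21) and Igfbp7 (-0.88). The share difference between HFD and NCD turned to -24.5 percentage points when taken of ILC1-like plus NK-like cells, and that between JQF and HFD ranged from -2.35 to 0.571 with 1 HFD library left out. The causes were not tested, beyond fewer cells, genes or libraries where the alternative removes them. Leaving out an HFD library left no residual degree of freedom in the group comparisons, which then gave fold changes with no test. Depth limits low genes most in NCD, where 3 UMIs are 6.80 CPM in the subset.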
